A study of Homo sapiens with 5 samples.

Results

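The cells described here are the kept D24 cells of a GnRH neuron differentiation that carried TBR1 and PPP1R17 transcripts and neither DLX transcripts nor high GNRH1, called TBR1/PPP1R17 cells below. A D24 barcode was kept with at least 1500 unique molecular identifiers (UMIs, counted transcripts), at least 1000 genes and under 20% of UMIs on mitochondrial genes. A kept cell was a member if TBR1 and PPP1R17 together had at least 3 UMIs, if DLX1, DLX2, DLX5, DLX6 and DLX6-AS1 had 0 UMIs, and if GNRH1 was below 1000 counts per 1000000 UMIs of the cell (CPM). Of 9905 D24 barcodes 9110 were kept and 5278 of these met the rule, which is 57.9% of the kept cells (56.9 to 59.0%) among 44007 barcodes in all files. The rule chose the cells by their measured levels, so every D24 value below is a description without a test.

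The cells came from WA09, a wild-type human embryonic stem cell line, differentiated towards neurons that make gonadotropin-releasing hormone (GnRH). Dual SMAD inhibition (dSMADi) with dorsomorphin and SB431542 came first, then FGF8, and last DAPT, which blocks Notch. The labels name no treatment with XAV939, a Wnt inhibitor, for these samples. Cells were stored frozen during the FGF8 phase, and papain released them for droplet sequencing of transcript 3′ ends. D22, D24 and D26 share all these agents, and each day is 1 library of 1 line, so a difference between days and a difference between libraries cannot be told apart.

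TBR1 is a T-box transcription factor of excitatory neurons of the dorsal telencephalon and olfactory bulb, and it acts in newly postmitotic cells. PPP1R17 encodes an inhibitor of protein phosphatases 1 and 2A and is best known from cerebellar Purkinje cells. Glutamatergic neurons load glutamate into vesicles with transporters of the SLC17 family, whereas GABAergic neurons make GABA with the enzymes GAD1 and GAD2. Neurotensin (NTS) and thyrotropin-releasing hormone (TRH) are cut from larger precursors and released as peptides, and RSPO3 is a secreted R-spondin that raises Wnt signalling in receiving cells.

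The D24 library held 71397909 UMIs, against 131583840 at D22 and 100865176 at D26. TBR1/PPP1R17 cells had a median of 7472 UMIs and the 3832 other kept D24 cells one of 6742.5. Levels are UMIs summed over a group and scaled to its total, with an exact 95% Poisson interval, and shares of cells have an exact 95% Clopper-Pearson interval. Both cover counting error only, since cells of 1 library are not replicates. The other kept cells were of 2 kinds: 3157 cells passed the limits on the DLX genes and GNRH1 but had 0 to 2 UMIs of TBR1 plus PPP1R17 (marker-low cells), and 675 had a DLX UMI or GNRH1 at 1000 CPM or more (DLX/GNRH1 cells). D24 shared 27 barcode sequences with D22 and 36 with D26, and 16 and 20 of these were TBR1/PPP1R17 cells whose partner was kept.

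The marker limit cut through a continuous distribution. Just outside it 1118 cells had 2 UMIs and 1053 had 1, just inside it 1052 had 3 and 859 had 4, and the median member had 5. Cells with 0, 2, 3 and 7 marker UMIs had medians of 6393, 6639, 6970.5 and 7574.5 UMIs in all, so depth moved with the count that the rule used. Of the members 4042 carried both transcripts, 846 carried TBR1 without PPP1R17 and 390 the reverse.

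**Figure D1:**
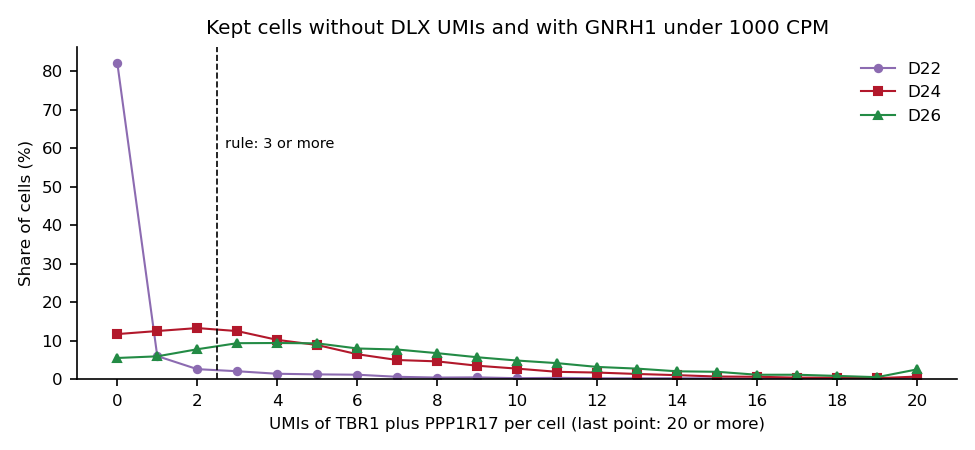
Share of kept cells without DLX UMIs and with GNRH1 under 1000 CPM (%, y axis) by the UMIs of TBR1 plus PPP1R17 in the cell (x axis), with 1 line for each day and a dashed line at the limit of the rule. At D24 the curve is flat across the limit, with 1118 cells at 2 UMIs and 1052 at 3, while at D22 6657 cells are at 0.

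The label of these cells held in part. TBR1 stood at 361 CPM in members, 108 in marker-low cells and 67.5 in DLX/GNRH1 cells, and PPP1R17 at 459, 45.5 and 64.8 CPM, which is what the rule selected. NTS was the only marker outside the rule with a level well above that of the other kept cells, at 53.6 CPM (51.4 to 55.8) against 29.5. TRH was at 192 CPM in members and 200.1 in the other kept cells, and RSPO3 at 485 and 422 CPM. Against the marker-low cells alone, TRH was lower in members (192 against 239 CPM) and RSPO3 was close (485 against 502 CPM). With a limit of 1 marker UMI in place of 3 the log2 ratios over the other kept cells were 0.81 (0.74 to 0.89) for TRH and 1.10 (1.05 to 1.16) for RSPO3, against -0.06 and 0.20 here, so this comparison depends on the limit.

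A glutamatergic identity rested on a single transporter gene. SLC17A6, the vesicular glutamate transporter VGLUT2, was at 71.8 CPM in members, 71.9 in marker-low cells and 21.1 in DLX/GNRH1 cells, and 37.8% of members had a UMI of it. After each cell was thinned to 1500 UMIs these shares were 9.51% (8.73 to 10.3%), 10.4% (9.35 to 11.5%) and 2.96% (1.82 to 4.54%). For members over marker-low cells the interval of the log2 ratio of SLC17A6 was -0.09 to 0.09. The medians of UMIs in these groups were 7472, 6570 and 8017. The thinned share was 9.59% (7.00 to 12.7%) in the 438 cells of a cluster led by CRABP1, SST and ROBO3 that were not members, close to that of members. SLC17A7 had 26 UMIs over all members and SLC17A8 had 0, which allows up to 0.0700 CPM at 3 counts. Of the glutamate release list 5 genes had at least 10 CPM in either group. Over the other kept cells 0 of them passed 2-fold, with a median log2 ratio of 0.11. Over the DLX/GNRH1 cells 1 was higher and 1 lower, with a median of 0.15. There 3.21% of all genes were at least 2-fold higher and 2.01% lower. GAD2 was at 0.863 CPM in members against 226 in DLX/GNRH1 cells, and GAD1 had 2 UMIs in members.

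TBR1 (chromosome 2, 161416297 to 161425870, plus strand on GRCh38) lies within SLC4A10 on the same strand, and SLC4A10 itself was at 1.61 CPM in members. PPP1R17 lies at chromosome 7, 31687215 to 31708455, NTS at chromosome 12, 85874295 to 85882992, TRH at chromosome 3, 129974688 to 129977935, and RSPO3 at chromosome 6, 127118671 to 127199481, all on the plus strand.

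Among 7577 genes with at least 10 CPM in either group, 9 (0.119%) were at least 2-fold higher in members and 72 (0.95%) at least 2-fold lower, and the median log2 ratio over all of them was 0.08. These counts depend on the marker limit: they were 104 and 163 with at least 1 marker UMI, and 2 were higher with at least 1 after thinning. The higher genes included RASGRP1, GABRA2, PCP4L1, MGAT4C, ONECUT3, CDH12, GPR176 and PTPRE. PTPRE, a receptor-type tyrosine phosphatase, had the largest fold, at 45.3 against 17.6 CPM. Against the marker-low cells 6 of 7569 genes (0.0793%) were at least 2-fold higher and 58 (0.766%) lower. Against the DLX/GNRH1 cells these counts were 246 (3.21%) and 154 (2.01%) of 7674 genes, with a median log2 ratio of 0.13. The limits on the DLX genes and GNRH1 held for members and marker-low cells alike, so these distances were set in part by the rule.

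The genes named next, 9 higher and 10 lower, were taken by size among those at 50 CPM or more that pointed the same way at D26. On the higher side MGAT4C, a member of the N-acetylglucosaminyltransferase family, stood at 116 CPM (113 to 120) against 53.6. RASGRP1, an exchange factor for Ras, was at 119 against 58.7 CPM, and RELN, the secreted glycoprotein reelin, at 115 against 59.6 CPM. The log2 ratios of these genes were 1.12, 1.02 and 0.95. LHX1, a LIM-homeodomain factor, was the most abundant of the 9 at 245 CPM (240.4 to 249.8) against 140.2, and it was at 166 in marker-low and 46.9 in DLX/GNRH1 cells. The cannabinoid receptor CNR1 (61.2 against 32.7 CPM), KLHL4 (69.7 against 38.0), PIK3R1, a regulatory subunit of PI3-kinase (175 against 100.04), and PCSK1, a prohormone convertase (55.8 against 32.2), lay below 2-fold. NTS completed the 9 at a log2 ratio of 0.86 (0.75 to 0.98). For these 9 genes the marker-low cells lay between the members and the DLX/GNRH1 cells.

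The 10 lower genes were high in different neighbours. GAD2 (0.863 against 51.1 CPM) and SIX3, a homeobox gene of the anterior forebrain (77.1 against 138), were highest in the DLX/GNRH1 cells, at 226 and 403 CPM, which the rule set apart. SIX3 was lower in marker-low cells, at 65.0 CPM, than in members. CRABP1, a retinoic acid-binding protein (24.7 against 313 CPM), and ROBO3, an axon guidance receptor (14.3 against 70.2), were highest in the marker-low cells, at 389 and 87.5 CPM. So were THSD7A (24.8 against 56.5), the helix-loop-helix gene HES6 (33.4 against 69.9), the proneural factor NEUROG1 (35.0 against 64.4) and HMGB2, a chromatin protein abundant in dividing cells (43.5 against 77.3). RND3, a small GTPase, and the POU factor POU3F2 were lower in members than in both neighbours. Over all 72 lower genes, 35 were highest in the DLX/GNRH1 cells and 37 in the marker-low cells.

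**Figure D2:**
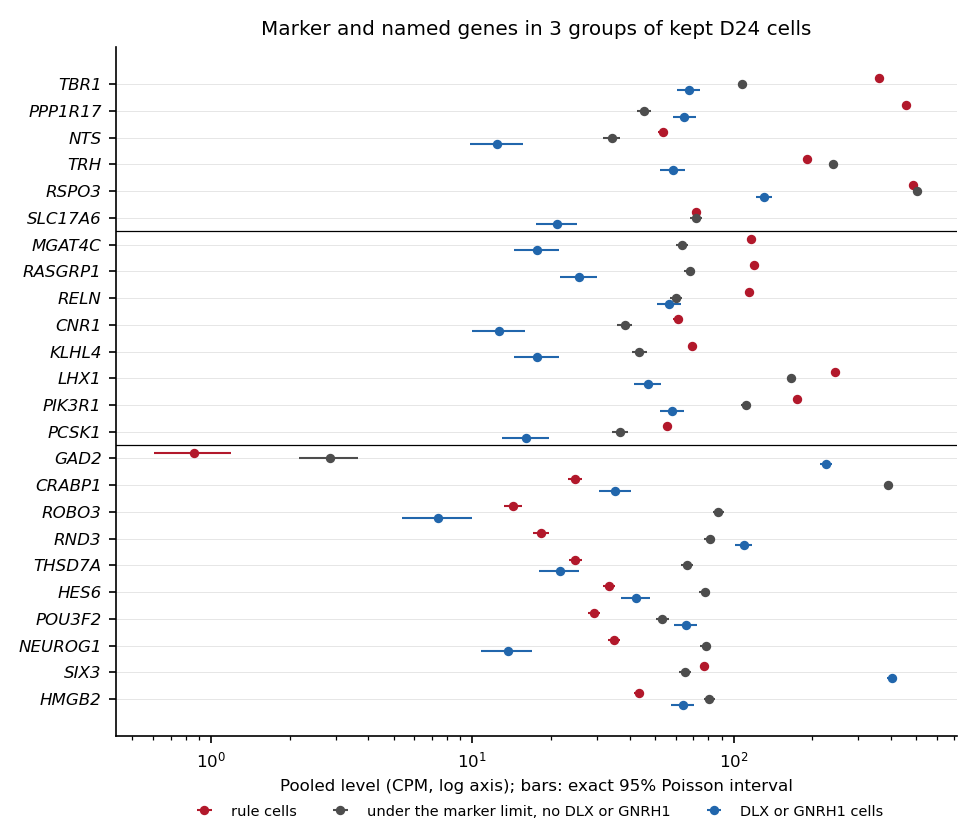
Pooled level (CPM, log x axis, bars are exact 95% Poisson intervals) of the marker genes, SLC17A6 and the named genes in TBR1/PPP1R17 cells (red, "rule cells"), marker-low cells (grey) and DLX/GNRH1 cells (blue) of D24. TRH, RSPO3 and SLC17A6 lie close together in red and grey, the higher genes run red, grey, blue from right to left, and CRABP1 stands at 389 CPM in grey against 24.7 in red.

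The gene lists are given by their members with at least 10 CPM in either group, called measured here, and their counts stand beside the shares of 0.119% and 0.95% above. Over all measured genes the median log2 ratio was 0.08, so more of them lay above 0 than below. The 5th and 95th percentiles were -0.22 and 0.37. A count of list genes above 0 stands against that background. Of the 9 measured LIM-homeodomain and LMO genes, 8 had a ratio above 0, with a list median of 0.32 in log2 against 0.08 for all genes, and 1, LMO3, passed 2-fold, downwards. ISL1, also a LIM-homeodomain gene but placed in the GABA neuron list, was at 0.233 CPM in members and 25.7 in the other kept cells. LHX2 was at 415 CPM in members and 393 in marker-low cells, LHX5 at 87.1 and 77.3, LHX9 at 183 and 172, and the antisense RNA LHX5-AS1, which overlaps LHX5 on the other strand, at 829 and 687. EMX2, a homeobox gene of the dorsal telencephalon and the olfactory epithelium, was at 675 and 545 CPM. LHX1, of the same list, was at 245 and 166 CPM. Apart from LMO3 and ISL1, the genes named here were abundant in members, and LHX1 lay furthest above the marker-low cells. LHX2 and LHX9 were close in both groups. Over the marker-low cells the median log2 ratio of all measured genes was 0.06. Within D24 clusters 1, 2 and 3, described below, LHX2 in members over marker-low cells was at -0.16, -0.16 and -0.01. LHX1 was there at 0.20, 0.37 and 0.36, LHX5 at -0.11, -0.21 and 0.13 and EMX2 at 0.04, 0.09 and 0.03.

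All 12 genes of neuropeptide processing had ratios above 0 (list median 0.34), and 0 passed 2-fold. They included the convertases PCSK1 and PCSK2 (126 against 96.3 CPM), the amidating enzyme PAM (114 against 82.6) and the granins SCG2 (213 against 146) and SCG5 (167 against 124). Of 8 measured peptide precursors 2 had a ratio above 0, the list median was -0.28, and SST and TAC1 were over 2-fold lower. The list had no single direction: its median was -0.15 against the marker-low and 0.86 against the DLX/GNRH1 cells, where 3 of 7 were higher and 3 lower. SST was at 1.05 CPM in members and 42.6 in marker-low cells, and TAC1 at 3.59 in members and 76.4 in DLX/GNRH1 cells. ADCYAP1, the precursor of PACAP, was at 58.2 CPM in members and 57.7 in marker-low cells.

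Genes of immature and dividing cells were lower in members than in the other kept cells as a whole. Of 11 measured genes of neuronal precursors 4 were over 2-fold lower (NHLH1, NHLH2, HES6 and EBF2), 0 were higher and the list median was -0.79. Of 11 measured genes of neural progenitors 5 were lower (SOX2, PTTG1, TOP2A, CCNB2 and UBE2C), with a list median of -0.83. SOX2, a factor of progenitors, was at 4.20 CPM in members, 25.1 in marker-low and 86.2 in DLX/GNRH1 cells. Cluster 9 of the D24 cells, described below, had TOP2A at 935 CPM against 0.925 in all other kept cells, and it held 59 of the 3157 marker-low cells and 13 members. Within the largest clusters, numbered 1 to 3, HMGB2 in members over marker-low cells was at -0.19, 0.21 and 0.17, with 0 inside each interval. HES6 was there at -0.17, -0.09 and -0.26 (-0.51 to -0.01), and NEUROG1 at -0.71, -0.71 and -0.62. Against all marker-low cells 7 of 13 measured precursor genes and 5 of 11 progenitor genes were at least 2-fold lower, and 0 were higher. Their list medians were -1.17 and -0.89, where 0.766% of all genes were lower. Against the DLX/GNRH1 cells, where 3.21% of all genes were higher and 2.01% lower with a median of 0.13, 3 of 10 measured precursor genes were higher and 1 lower, with a list median of 0.13. Of 9 progenitor genes 1 was higher and 4 were lower there, with a list median of -0.64. For 18 measured genes of neuron maturation the median was 0.21 with 0 past 2-fold, and STMN2, a neuronal tubulin-binding protein, was at 9319 and 8591 CPM in members and other kept cells.

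All 5 measured genes of the IRX neuron list (IRX2, CRABP1, NR2F1, ROBO3 and SST) were over 2-fold lower, and their summed level with the rest of the list was 59.6 CPM in members and 615 in marker-low cells. All 4 measured genes of the GABA neuron list were lower, which the limit on DLX transcripts favoured. Among 9 measured genes of Cajal-Retzius neurons 2 were lower and 0 higher, and TP73, which defines most such cells, was at 0.536 CPM. TP73 was concentrated in cluster 8, described below, at 51.2 CPM in all its cells against 0.188 in all other kept cells. Among 7 measured genes of dorsal cortex neurons 0 passed 2-fold, EOMES was at 51.1 CPM in members and 50.3 in other kept cells, and the later cortical genes NEUROD6 and BCL11B had 0 and 8 UMIs. Of the olfactory bulb projection neuron list 7 of 7 measured genes had ratios above 0 with a median of 0.43, 0 passed 2-fold, and the list summed to 896 CPM in members, 694 in marker-low and 395 in DLX/GNRH1 cells. Over the marker-low cells alone 5 of these 7 genes had ratios above 0, with a median of 0.32. Over the DLX/GNRH1 cells 3.21% of all genes were at least 2-fold higher and 2.01% lower, and of the 7 olfactory bulb genes 5 were higher and 0 lower. Of 7 dorsal cortex genes 5 were higher and 0 lower there. Of 9 Cajal-Retzius genes 5 were higher and 2 lower, and of 5 olfactory sensory neuron genes 3 were higher and 1 lower. The olfactory bulb list shares RELN, LHX1, LHX5 and EOMES with other lists here, and TBX21, a defining member, had 0 UMIs. Of the olfactory sensory neuron list 4 of 4 measured genes had ratios above 0 with a median of 0.32, 0 passed 2-fold, and OMP, which marks mature such neurons, had 0 UMIs. Over the marker-low cells alone 3 of 4 had ratios above 0, with a median of 0.18. Genes of olfactory sensory precursors that had a level, such as EMX2, LHX2 and GNG8 (384 CPM), were shared with the marker-low cells. Among receptors, GABRA2 was the only GABA-A subunit past 2-fold (38.2 against 18.7 CPM), and of 5 measured glutamate receptor genes 0 passed it and 4 had ratios above 0, with a median of 0.10, GRIK2 at 20.7 against 12.8 CPM and GRIA2 at 14.1 against 26.5. In the list of R-spondin and Wnt genes WLS passed 2-fold, downwards, and in that of protein phosphatases 1 and 2A 0 of 11 did.

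Several of these differences were smaller among cells of one cluster. All kept D24 cells were clustered without the rule's genes, which gave 10 clusters, and in the 3 largest members and marker-low cells were compared within the cluster. In cluster 1 LHX1 was at 303 CPM in 2201 members and 264 in 433 marker-low cells, a log2 ratio of 0.20 (0.10 to 0.31). In cluster 2 it was at 231 and 179 CPM, and in cluster 3 at 185 and 144. MGAT4C differed by 0.08 (-0.07 to 0.22) in cluster 1, 0.33 in cluster 2 and 0.42 in cluster 3, against 0.87 over all marker-low cells. CRABP1, at -3.98 over all marker-low cells, was at -0.46 (-0.91 to 0.02), 0.17 (-0.24 to 0.61) and -0.36 (-0.62 to -0.10). The pooled level of NTS was higher in members of each, by 0.31 (0.04 to 0.60), 0.27 (0.07 to 0.46) and 0.58 (0.36 to 0.79). Few cells held most of the NTS UMIs, as given below, so these intervals are too narrow. A difference between cells was not tested. TRH was lower in members within clusters 2 and 3, at -0.35 and -0.26, and RSPO3 within clusters 1 and 2, at -0.19 and -0.22; the interval of TRH held 0 in cluster 1 and that of RSPO3 in cluster 3. NEUROG1 was lower in members of all 3 clusters, at -0.71, -0.71 and -0.62.

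The members were spread over several clusters. Cluster 1 held 41.7% of them and was 82.7% members, cluster 2 held 27.9% and was 61.3% members, and cluster 3 held 18.9% and was 50.5% members. Cluster 5 held 340 members, cluster 7 held 155, cluster 8 held 48, cluster 6 held 42, and clusters 9, 10 and 4 held 13, 10 and 3. No cluster was made of members alone, so clustering on the other genes did not draw the line that the rule drew. The leading genes given below define the clusters and are a description of them.

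Cluster 1 was led by MGAT4C, PPP1R17, RASGRP1, RELN, PTPRE, CNR1 and LHX1, most of which were also named above as higher in members as a whole. Its members had DCX, a microtubule protein of migrating young neurons, at 1074 CPM, LHX1 at 303 and PPP1R17 at 540. Cluster 2 was led by NTS together with housekeeping and cytoskeletal genes such as GAPDH, HSPA8 and TUBB. Its members had GAPDH at 3529 against 2266 CPM in cluster 1, DCX at 543, a mitochondrial share of 3.22% and a median of 6182 UMIs. Those of cluster 1 had 4.59% and 7893 UMIs. The part of RNA quality in this division was not tested.

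Cluster 3 was led by EOMES, NEUROG1, CNTN2, PRSS23, RSPO3 and NHLH1. EOMES is a T-box factor of intermediate progenitors and young glutamatergic neurons, and CNTN2 is an axonal adhesion molecule. Its members had RSPO3 at 803 CPM (784 to 822), TRH at 295 (284 to 306), EOMES at 106 and CNTN2 at 166. In members of cluster 1 these were at 433, 147, 39.7 and 51.6 CPM. PPP1R17 was at 249.7 CPM in cluster 3 against 540 in cluster 1, and GABRA2, a GABA-A receptor subunit, was at 7.59 against 46.6. TBR1 was alike at 356 and 381 CPM. Since the rule used the sum of TBR1 and PPP1R17, a member low in one had to carry the other, and nothing is read from their levels here.

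Cluster 5 was led by FOXP2, PLPPR1, GJD2, LYPD1, ETV1 and MEIS2. Its 340 members had FOXP2, a forkhead factor of several projection neuron types, at 91.7 CPM against 11.9 in cluster 1, and MEIS2, a homeobox factor, at 467 against 205. Their SLC17A6 was 125 CPM (112 to 138), the highest of the clusters with over 100 members. RSPO3 was at 236 CPM, LHX1 at 127 and RELN at 23.0.

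Cluster 7 was led by SUSD4, PAX6, CALB2, CDH12, GRIA4 and SCN2A. Its 155 members had TBR1 at 372 and PPP1R17 at 637 CPM, from which again nothing is read. They had little of the other 3 markers, with NTS at 5.82 CPM (2.14 to 12.7), TRH at 59.2 and RSPO3 at 71.8. Among genes picked after their values were seen, GABRA2 was at 132 CPM, the AMPA receptor subunit GRIA2 at 60.1, the sodium channel SCN2A at 109.6 and PCSK1 at 139. PAX6, a homeobox factor, was at 208 CPM against 33.2 in cluster 1, and EOMES was at 1.94.

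Cluster 8 was led by SMIM32, CDKN1A, PMAIP1, PIDD1, PHLDA3 and TP73. CDKN1A, PMAIP1 and PHLDA3 are known targets of the p53 family. Its 48 members had TRH at 1139 CPM (1048 to 1235), the highest of all clusters, CDKN1A at 174, NEUROG1 at 167 and NHLH1 at 137. Their PPP1R17 was 120 CPM (91.4 to 153), so most entered through TBR1, at 427. Of these 48 cells 44 had a TRH UMI, and 64.6% (49.5 to 77.8%) had it after thinning.

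The members of clusters 6 and 9 were apart from the rest. Cluster 6 was led by CRABP1, SST and ROBO3; 42 of its 480 cells were members, with CRABP1 at 534 CPM, a median of 11046.5 UMIs and 59.5% scored as doublets, against 5.49% of all members. Cluster 9 was led by the cell-cycle genes TOP2A, UBE2C and NUSAP1, and its 13 members had TOP2A at 1636 CPM, the metallothionein MT1X at 3154 and TBR1 at 40.8, with 0% scored as doublets. The part of doublets in the values of cluster 6 was not tested.

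**Figure D3:**
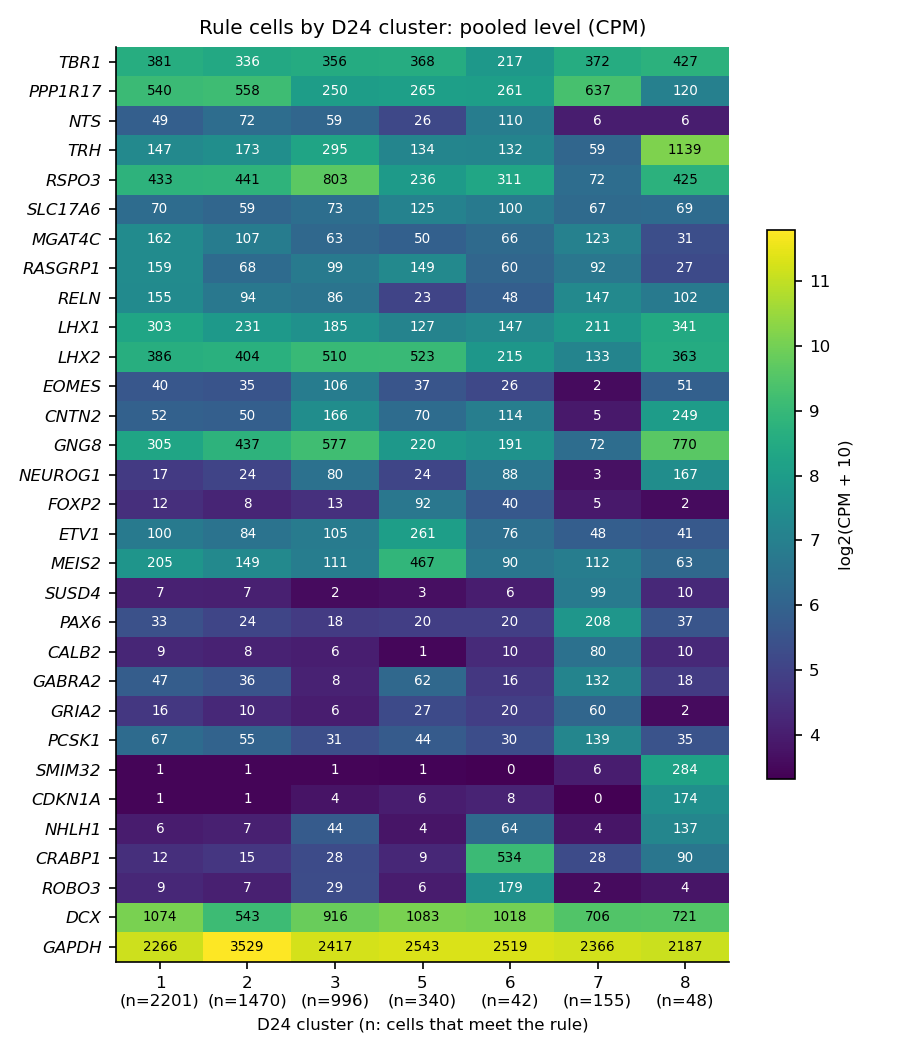
Pooled level (CPM, printed in each cell, colour is log2 of CPM plus 10) of marker and leading genes (rows) in the TBR1/PPP1R17 cells of the D24 clusters with over 40 of them (columns, n is the number of members). RSPO3 peaks in cluster 3 at 803 CPM, TRH in cluster 8 at 1139, FOXP2 in cluster 5 at 91.7 and PAX6 in cluster 7 at 208. TBR1 lies between 217 and 427 in all columns, but its level and that of PPP1R17 are shaped by the rule that chose the cells.

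Clustered by themselves, the members fell into 5 sub-clusters of 3400, 1476, 295, 62 and 45 cells at a Leiden resolution of 0.3, and into 3 at 0.15 and 7 at 0.6. Sub-cluster 1 was led by AC008522.1, RASGRP1, DCC, KCNQ1OT1 and ABCA1. Sub-cluster 2 was led by NTS, GAPDH, HSPA8, ACTR10 and ILF2 and had a lower mitochondrial share (3.18% at the median, against 4.49% in sub-cluster 1) and fewer UMIs (6228 against 8001.5). Sub-cluster 3 shared leading genes with cluster 7 and was led by AC114316.2, SUSD4, PAX6, CALB2 and AC010247.2. Sub-cluster 4 was led by MT1X, UBE2C, MT2A, TOP2A and NUSAP1 and 38.7% of it was scored as doublets. Its leading genes also held CRABP1, at 583 CPM against 14.2 in all other members, and CCND1, at 185 against 0.713. They thus joined leading genes of clusters 9 and 6, where 0% and 59.5% of the members were scored as doublets. Sub-cluster 5 was led by SMIM32, CDKN1A, PMAIP1, HIST1H1C and PHLDA3, with TRH at 1171 CPM. When NTS, TRH and RSPO3 were also left out of the clustering, an alternative chosen after the data were seen, there were again 5 sub-clusters. Of the cells of sub-clusters 1 to 5, 97.6, 94.5, 62.0, 87.1 and 100% then stayed together. Without the cells scored as doublets 47.4% of the remaining cells of sub-cluster 4 did.

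Cell-to-cell spread differed widely among the markers. Excess dispersion, the squared coefficient of variation between cells beyond counting error and depth, had a median of 0.0726 over 5222 genes with at least 20 CPM in members. It was 0.0421 for TBR1, 0.571 for PPP1R17, 0.513 for RSPO3, 1.85 for TRH and 8.80 for NTS. The values of TBR1 and PPP1R17 were shaped by the rule, which removed cells low in both. NTS was held by few cells: 17.0% of members had an NTS UMI, 148 cells held 50% of its UMIs and the top 10% of cells held 83.8%. For TRH the top 10% held 49.5%, for RSPO3 32.4% and for TBR1 23.8%. Above NTS in dispersion stood MT1X, CRABP1, HMGB2 and HES6. PTH2, which encodes a parathyroid hormone-like peptide, had 5.37 at a level of 24.5 CPM.

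**Figure D4:**
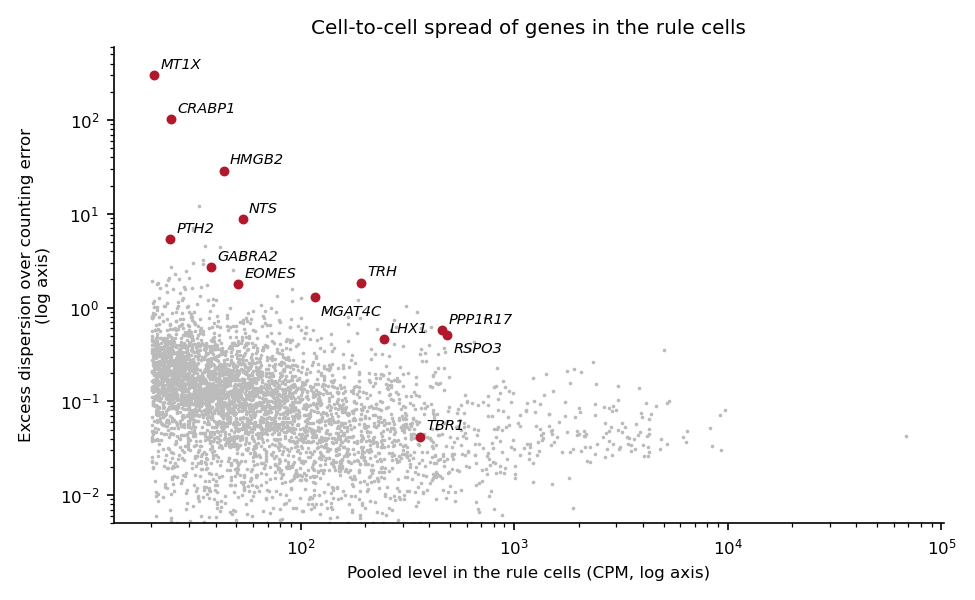
Excess dispersion (log y axis) against pooled level in CPM (log x axis) for genes with at least 20 CPM in the TBR1/PPP1R17 cells, with chosen genes in red; 946 of 5222 genes at or under 0.005 are not drawn. NTS at 8.80 and TRH at 1.85 stand above the 95th percentile of these genes, 0.445, and MT1X, CRABP1 and HMGB2 stand above NTS. TBR1 at 0.0421 and PPP1R17 at 0.571 are shaped by the rule that chose the cells.

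Thinned to 1500 UMIs, 5.99% of members had an NTS UMI (5.36 to 6.66%), 19.2% a TRH UMI (18.2 to 20.3%) and 43.8% an RSPO3 UMI (42.4 to 45.1%). Unthinned these shares were 17.0, 50.8 and 80.5%. Thinned shares in marker-low cells were 3.74, 23.9 and 44.2%, and in all other kept cells 3.44, 20.9 and 38.6%. The 438 cells of cluster 6 that were not members had a median depth of 6591 UMIs. Their thinned shares were 0.228% (0.00578 to 1.27%), 1.60% (0.645 to 3.26%) and 3.20% (1.76 to 5.30%). They are cells with leading genes of their own, and the level of free RNA was not estimated. The interval of the NTS share in members of cluster 7 (0.645%, 0.0163 to 3.54%) overlapped that of these 438 cells, whereas cluster 2 had 7.62% (6.31 to 9.10%). Among the clusters with over 100 members the TRH share ran from 7.10% in cluster 7 to 31.9% in cluster 3, and the RSPO3 share from 9.68 to 64.6% in the same clusters. The 48 members of cluster 8 had the higher TRH share given above.

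The shares of members with NTS and with TRH did not visibly depend on each other. Of the 316 members with an NTS UMI after thinning, 19.6% (15.4 to 24.4%) had TRH, against 19.2% (18.1 to 20.3%) of those without. TRH and RSPO3 were found together more often, as 51.2% (48.1 to 54.3%) of the members with TRH had RSPO3, against 42.0% (40.5 to 43.5%) of those without.

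Members rich in a peptide were compared with members that had 0 UMIs of it, by limits chosen after the values were seen. Counts are by the same ratio and floor of 10 CPM as above, and in groups this small counting error alone can carry a low gene past 2-fold. Between the 264 members with at least 3 NTS UMIs and the 4379 with 0, 3 of 7633 genes (0.0393%) were at least 2-fold higher and 20 (0.262%) lower, and with a floor of 50 CPM 0 were in either direction. LHX1 was at 267 and 243 CPM, TBR1 at 325 and 366, and MGAT4C, which lies next to NTS on chromosome 12 (85955666 to 86838904, minus strand), at 136 and 115. Other genes were further apart, such as CDH7 at 46.3 against 23.5 CPM, PCSK1 at 31.9 against 58.0 and MEIS2 at 127 against 193. UBE2C, a gene of dividing cells, was at 0.425 against 10.9 CPM. For the 506 members with at least 5 TRH UMIs these counts were 25 (0.326%) and 14 (0.183%) of 7659, and with the floor of 50 CPM 5 and 1. They had NEUROG1 at 69.1 against 25.1 CPM, EOMES at 80.8 against 37.4, CNTN2 at 140 against 56.8 and SMIM32 at 24.3 against 1.55. Of these 506 members 39 lay in cluster 8, where SMIM32 was at 284 CPM against under 1 in clusters 1, 2 and 3. PPP1R17 was at 298 against 520.1 CPM and GABRA2 at 18.6 against 51.5. For the 831 members with at least 8 RSPO3 UMIs the counts were 69 (0.885%) and 98 (1.26%) of 7796, and with the floor of 50 CPM 21 and 14. They had CNTN2 at 141 against 23.0 CPM, EOMES at 90.3 against 15.3, GNG8 at 513 against 183 and TRH at 257 against 108, with PPP1R17 at 323 against 607. In NTS-rich members EOMES was at 50.6 against 51.7 CPM, CNTN2 at 79.0 against 77.7 and PPP1R17 at 499 against 449. The values of PPP1R17 and TBR1 among members were conditioned by the rule, and the intervals of EOMES and CNTN2 held 0 for NTS. Cluster 3, whose leading genes included EOMES, CNTN2, RSPO3 and TRH, held 39.7% of the TRH-rich members against 11.6% of those with 0, 46.2 against 2.24% for RSPO3 and 17.8 against 18.9% for NTS. In members with 0 RSPO3 UMIs the cell division gene UBE2C was at 45.9 CPM against 0.114 in RSPO3-rich members, and the metallothionein MT1X at 76.6 against 5.15. Both genes were concentrated in the 62 cells of sub-cluster 4, at 467 and 863 CPM, against 0.285 and 4.70 in all other members. For the 203 members with at least 2 PTH2 UMIs 12 (0.156%) of 7717 genes were higher and 14 (0.181%) lower than in the 4601 with 0. Cells rich in TRH or RSPO3 were deeper, with medians of 8950 and 9136 UMIs against 7079 and 6646 in those with 0. The part of depth was not tested.

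Members with a single marker also differed in pooled levels. The split used the rule's own genes, so a member without one of them carried at least 3 UMIs of the other. How far this shaped the values was not tested. The 846 with TBR1 and no PPP1R17 had TRH at 315 CPM, RSPO3 at 642, EOMES at 86.1 and NEUROG1 at 75.7, and 40.1% of them lay in cluster 3. In the 4042 members with both these were at 169, 457, 45.3 and 26.1 CPM, and 15.0% lay in cluster 3. The 390 with PPP1R17 and no TBR1 had TRH at 159 and RSPO3 at 435 CPM, close to the members with both, but held 10 of the 13 dividing members of cluster 9 and TOP2A at 95.3 against 2.55 CPM. SLC17A6 was at 87.3, 69.8 and 57.2 CPM in members with TBR1 alone, both and PPP1R17 alone.

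The same rule found 752 of 9539 kept cells at D22 (7.88%, 7.35 to 8.44%) and 7169 of 11060 at D26 (64.8%, 63.9 to 65.7%). TBR1 in these cells was at 283 CPM at D22, 361 at D24 and 352 at D26, and PPP1R17 at 277, 459 and 537.0. Both levels were conditioned by the rule. Its limit of 3 UMIs was the same on all days, while these cells had medians of 11687, 7472 and 8622 UMIs. Nothing is therefore read from TBR1 and PPP1R17 across days. RSPO3 was at 717, 485 and 11.8 CPM, TRH at 292, 192 and 22.9, and NTS at 33.0, 53.6 and 9.14. The 3 secreted factors were therefore far lower in the D26 library, where 1.39% of the cells had an RSPO3 UMI after thinning, against 43.8% at D24. The other kept cells of D26 were as low, with RSPO3 at 11.2 CPM against 422 at D24. SLC17A6 was at 94.3, 71.8 and 67.5 CPM and LHX1 at 121, 245 and 195.

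EOMES, CNTN2, GNG8 and NEUROG1 were also lowest at D26, while some other genes were highest there. EOMES in members was at 164 CPM at D22, 51.1 at D24 and 0.680 at D26, CNTN2 at 174, 77.7 and 6.32, GNG8 at 368, 384 and 39.1, and NEUROG1 at 225, 35.0 and 0.529. GABRA2 was at 10.97, 38.2 and 296 CPM, MGAT4C at 18.9, 116 and 289, CALB2 at 4.16, 9.19 and 67.1, and PAX6 at 37.7, 31.2 and 124. The glutamate receptor subunit GRIA2 was also higher at D26, at 6.80, 14.1 and 72.3 CPM. Over 8381 genes the median log2 ratio of D26 over D24 members was 0.33, and against this shift RSPO3 stood at -5.36, EOMES at -6.23 and GABRA2 at 2.96. These genes were picked after their values were seen, and a day cannot be told apart from its library.

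**Figure D5:**
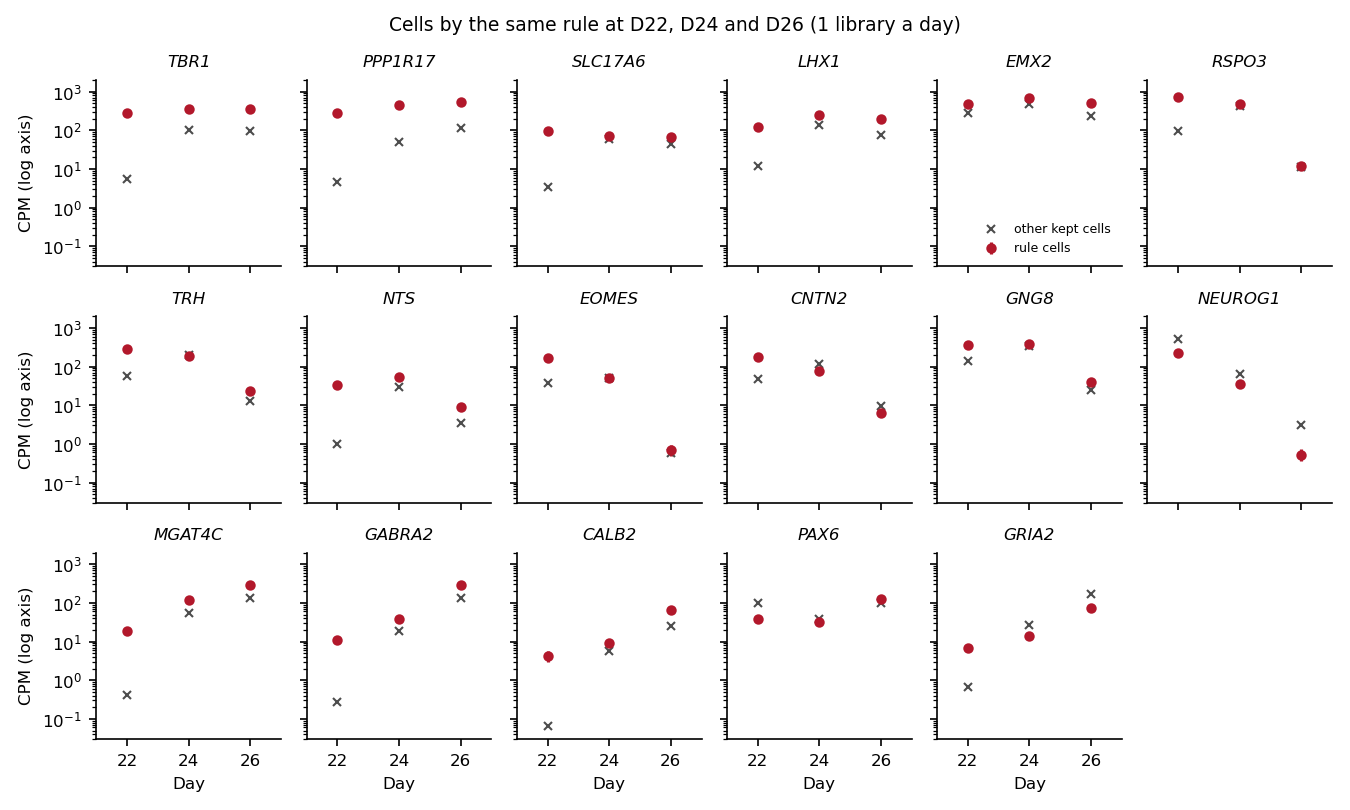
Pooled level (CPM, log y axis) of marker and other named genes in the cells that met the rule (red, bars are exact 95% Poisson intervals) and in the other kept cells (crosses) of the D22, D24 and D26 libraries (x axis, day). RSPO3, TRH, EOMES, CNTN2, GNG8 and NEUROG1 lie lower at D26 than at D24 in both groups, and MGAT4C, GABRA2, CALB2, PAX6 and GRIA2 lie higher in both. TBR1 and PPP1R17 are shaped by the rule that chose the cells.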

How the data were processed

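Single-cell transcriptomes of WA09 cells at D22, D24 and D26 were prepared with the 10x Genomics 3′ kit. The authors aligned the reads to GRCh38 with Cell Ranger 3.1.0 and deposited UMI counts per gene and barcode, without normalization; all values were whole numbers. Samples of D0 to D10 were not used here. Barcodes were filtered as stated above, and the study's further limit on complexity (0.82) was an alternative. Counts were summed per group of cells and scaled to CPM. For a ratio, the interval came from an exact binomial on how a gene's UMIs divide between both groups; it takes UMIs as independent and is too narrow where few cells hold most of them. With 1 library a day there was no test and no p-value. In simulated data drawn from these counts the ratio and its interval were tested before use. The simulated UMIs were independent, which the interval assumes, so this could not test it under spread between cells.

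Cells were log-normalized to 10000 UMIs. The 2000 most variable genes, without the rule's genes, were scaled (limit 10), reduced to 30 principal components and joined to 20 neighbours, and Leiden resolutions were 0.5 for all kept D24 cells and 0.3 for the members. Leading genes have the largest fold after adding 10 CPM. Doublets were scored with Scrublet's formula in own code (expected rate 6%, 2 simulated doublets per cell) and stayed in. A score of at least 0.25 marked 396 of 9110 kept D24 cells and 290 of 5278 members. The share was 5.49% in members, 1.27% in marker-low and 9.78% in DLX/GNRH1 cells. The part of doublets in the ratios of members to marker-low cells was not tested. Thinning drew UMIs without replacement, and no kept cell was too shallow for 1500. Genes with at most 3 UMIs in both groups got no ratio, and a count of 0 was limited by 3 counts. Positions are from GENCODE 44, which matched 33113 of 33538 gene identifiers. Whether counting used strand is not given in the sources used here.

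Genes named are those of the rule and of the gene lists, the leading 5 of each sub-cluster, and 10 in each direction with the largest ratio to the other kept cells among genes at 50 CPM or more with the same direction at D26, without mitochondrial and ribosomal protein genes. Genes named for the D24 clusters, the peptide limits and PTH2 were chosen after their values were seen. A few genes that these rules name are not reported here. The members and the gene lists were chosen with earlier results of these data known. Python 3.11.15, numpy 2.4.6, scipy 1.17.1, pandas 2.3.3, scanpy 1.11.5, leidenalg 0.10.2 and matplotlib 3.10.9 were used.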

Additional observations from a re-analysis of the deposited data

Results flagged for a closer look

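For a few named genes the ratio of TBR1/PPP1R17 cells over other kept cells had opposite directions at D24 and in another library. These differences were not tested, since each day is 1 library. TRH had a log2 ratio of -0.06 at D24 (192 against 200.1 CPM), 2.34 at D22 (292 against 57.8 CPM) and 0.84 at D26 (22.9 against 12.8 CPM). PCSK1 was at 0.79 at D24 and -0.42 at D22. CRABP1 was at -3.66 at D24 and 0.44 at D22, ROBO3 at -2.30 and 1.44, and THSD7A at -1.19 and 2.50. The other kept cells of D22 were at 810 CPM of STMN2, against 8591 at D24, so the group compared with was not alike on the days.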

How the results depend on the processing

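The limits of the rule set the number of members more than the filters on cells did. With at least 1 marker UMI 15.1% of kept D22, 81.8% of D24 and 75.8% of D26 cells were members, with at least 5 these were 4.98, 37.0 and 49.8%, and with at least 1 after thinning 5.44, 48.9 and 52.1%. Without the limits on DLX genes and GNRH1 the share was 59.2% at D24 and 70.1% at D26, and with 3000 UMIs and 10% mitochondrial share it was 65.9% at D26. With at least 1 marker UMI 104 genes were 2-fold higher and 163 lower; with at least 1 after thinning 2 were higher; with a floor of 50 CPM 3 were higher and 6 lower. The share with TRH was 21.5% and with RSPO3 45.9% at 1 marker UMI, and 17.8 and 41.7% at 5. Thinned to 4000 UMIs, which left out 103 members, the shares with NTS, TRH and RSPO3 were 11.6, 37.4 and 69.7%. Resolution 0.15 gave 3 sub-clusters and 0.6 gave 7, where 55.4% of the cells of sub-cluster 1 stayed together. At 1 marker UMI the log2 ratio of TRH reversed to 0.81 and those of RSPO3 and NTS were 1.10 and 2.01, and at 5 that of RSPO3 reversed to -0.041. Over 23 genes and 184 alternatives 107 ratios stayed within the main interval, 75 moved in size and 2 reversed. Leaving out cells scored as doublets gave 9 higher and 71 lower genes. No paired analysis was possible because each day is 1 library and no test was made.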

Other observations

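Several further gene groups of the TBR1/PPP1R17 cells at D24 had values that belong in no comparison above, and all are descriptions of 1 library. Among axon guidance and adhesion genes 24 were at 10 CPM or more, 1 (CDH12) was over 2-fold higher than in the other kept cells and 3 (ROBO2, ROBO3 and EFNB2) lower. SLIT1, a secreted guidance ligand, was at 83.2 CPM against 52.0 in the other kept cells, its receptor ROBO1 at 59.9 against 43.3 and NRP1, a semaphorin co-receptor, at 98.4 against 71.1. Of the ONECUT transcription factors ONECUT2 was at 79.3 CPM against 54.5 and ONECUT3 at 15.6 against 7.13. RORB, a nuclear receptor, was at 139 CPM against 88.5. Within the Wnt list FRZB, a secreted antagonist, was at 38.4 CPM against 23.2, the ligand WNT4 at 12.2 against 6.47, and WLS, which carries Wnt ligands to the cell surface, at 2.59 against 14.47. DDIT3, a stress-response factor, was at 7.77 CPM against 19.2, and of 5 genes of the low oxygen list 0 passed 2-fold in either direction.

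A pair of peptide genes beside NTS and TRH had UMIs in these cells, at low levels. Whether reads of neighbouring genes were counted for either was not tested. HCRT, the precursor of the orexins, was at 46.6 CPM (44.6 to 48.7) in members, 41.1 in marker-low cells and 109.96 in DLX/GNRH1 cells, and 7.07% (6.39 to 7.79%) of members had a UMI after thinning, against 0.685% (0.141 to 1.99%) in the cells of the CRABP1-led cluster that were not members. PTH2 was at 24.5 CPM in members, 25.4 in marker-low and 6.75 in DLX/GNRH1 cells. After thinning 6.47% (4.10 to 9.63%) of the members of cluster 5 had a PTH2 UMI, against 2.99% of all members. Of the members of cluster 7, 0 of 155 did. Both peptides were lower in members at D26, HCRT at 17.4 CPM and PTH2 at 2.21.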
